A study of Mus musculus with 3 samples.

Results

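The skin epithelium of the mouse tail at embryonic day E14.5 was taken as the cells that the authors had given cluster code 3 or 8 in the tail library, and it comprised 131 of the 2052 tail cells (6.38%, 95% exact binomial interval 5.36 to 7.53%) and of 15827 cells in the series. Code 3 held 49 cells and code 8 held 82. The series also includes a culture of tenocytes and a culture of paraxial mesoderm, both made from mouse embryonic stem cells, and it was designed to compare the cultured tenocytes with their counterparts in the embryo. The tail came from untreated embryos of ScxGFP dams, which carry a tendon reporter transgene. Embryos of either sex were taken, and their number is not given in the sources used here.

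One tail library was sequenced, so that no p-values were computed and cells were not treated as replicates. All intervals cover counting error only. The cluster codes were drawn by the authors from the expression of the same genes, and every difference between codes is therefore a description and not a test. A level is the summed unique molecular identifiers (UMIs, 1 per captured transcript) of a gene per 1000000 UMIs of a group of cells (CPM), and a ratio is the quotient of a pair of such levels with its exact 95% interval. A gene was called higher or lower where its ratio reached 2-fold, provided that 10% or more of the cells of either group had a UMI of it and that both groups together held 50 UMIs or more.

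The epidermis begins as a single sheet of ectoderm and becomes layered during the days around this stage. Basal keratinocytes make Krt5, Krt14 and Krt15, divide, and are anchored to the basement membrane by hemidesmosomes. Their suprabasal daughters leave that membrane, switch to Krt1 and Krt10 and strengthen their desmosomes, while the periderm, a transient outer layer of flat cells, makes simple keratins such as Krt8, Krt18 and Krt19 and seals the surface with tight junctions until the barrier has formed. Hair placodes are local thickenings of the basal layer that form under Wnt and ectodysplasin signals.

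The members held more UMIs per cell than the rest of the tail. The median was 20784 UMIs per cell (range 3178 to 48291) against 13131 in the 1921 other tail cells. Code 3 had a median of 23773 UMIs and code 8 of 20468, and no member exceeded 6.66% mitochondrial UMIs. Of the 131 cells, 3 carried a barcode that also occurred in another library of the series. Among all 2052 tail cells, 4 shared a barcode with the tenocyte culture and 3 with the paraxial mesoderm.

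Genes that separate these cells have different start regions, and those of 4 keratins and Krtdap are shown because the classes below are named after them or their partners. The windows run from 250 bases before to 50 bases after the annotated start (RefSeq, GRCm38.p6), on the strand of the gene. Krt14 lies at chr11:100205981-100206280 and Krt5 at chr15:101712856-101713155, both on the minus strand. Krt10 lies at chr11:99389315-99389614 on the minus strand, Krtdap at chr7:30787655-30787954 on the plus strand and Krt8 at chr15:102004293-102004592 on the minus strand. Capitals mark matches on either strand to TATAAA, the core of the TATA box, and to TGANTCA, the site bound by AP-1 factors.
Krt14: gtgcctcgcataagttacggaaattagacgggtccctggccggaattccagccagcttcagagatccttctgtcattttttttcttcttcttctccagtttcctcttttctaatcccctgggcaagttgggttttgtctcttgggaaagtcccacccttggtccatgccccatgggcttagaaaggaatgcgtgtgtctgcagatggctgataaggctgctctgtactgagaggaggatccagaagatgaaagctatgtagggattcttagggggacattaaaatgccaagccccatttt
Krt5: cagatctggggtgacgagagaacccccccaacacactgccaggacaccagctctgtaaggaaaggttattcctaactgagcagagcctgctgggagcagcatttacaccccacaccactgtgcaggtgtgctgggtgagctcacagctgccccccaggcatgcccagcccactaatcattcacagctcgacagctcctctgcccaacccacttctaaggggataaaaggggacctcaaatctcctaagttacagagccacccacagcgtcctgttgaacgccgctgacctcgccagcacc
Krt10: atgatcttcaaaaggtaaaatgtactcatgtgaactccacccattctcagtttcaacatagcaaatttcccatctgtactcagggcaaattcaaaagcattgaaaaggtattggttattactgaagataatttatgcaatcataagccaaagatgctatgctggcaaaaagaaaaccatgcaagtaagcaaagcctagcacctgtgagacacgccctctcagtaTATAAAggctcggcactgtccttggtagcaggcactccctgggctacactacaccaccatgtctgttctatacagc
Krtdap: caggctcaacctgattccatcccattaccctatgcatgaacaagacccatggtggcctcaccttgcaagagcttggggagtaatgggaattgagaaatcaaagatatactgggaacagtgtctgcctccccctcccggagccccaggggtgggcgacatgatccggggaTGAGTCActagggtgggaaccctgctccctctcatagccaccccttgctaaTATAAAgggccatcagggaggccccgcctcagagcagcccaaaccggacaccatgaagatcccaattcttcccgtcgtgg
Krt8: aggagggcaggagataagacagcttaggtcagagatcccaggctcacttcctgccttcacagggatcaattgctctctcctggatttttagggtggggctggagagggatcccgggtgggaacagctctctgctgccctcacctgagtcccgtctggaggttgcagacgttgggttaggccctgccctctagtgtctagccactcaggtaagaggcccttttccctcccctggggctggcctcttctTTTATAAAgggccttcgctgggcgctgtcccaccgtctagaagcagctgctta

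The TATAAA letters stood at base 225 of the Krt10 window, base 221 of the Krtdap window and bases 248 and 250 of the Krt8 window, the last 2 overlapping and on opposite strands. None stood in the windows of the basal pair Krt5 and Krt14. TGANTCA occurred once among the 5 windows, at base 170 for Krtdap, and the letters GCCNNNGGC, searched for the AP-2 family, occurred in none. Over all 32851 promoters of the table, 13.6% held TATAAA, 7.81% TGANTCA and 16.6% GCCNNNGGC. These matches are letters in a window and say nothing about binding.

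The markers of the label were present in nearly all members. Krt14, the basal type I keratin, was at 2544 CPM (95% interval 2487 to 2602) against 14.9 CPM in the other tail cells, a ratio of 170 (155 to 188). Krt5, its type II partner, was at 1451 CPM against 7.96 (ratio 182, 159 to 209). Epcam, an epithelial adhesion molecule, was at 586 CPM against 9.01 (ratio 65.0, 57.0 to 74.4). Without thinning, 120 of 131 cells had a UMI of Krt14, 127 one of Krt5 and 124 one of Epcam. After each cell was thinned to 3000 UMIs the shares were 86.3%, 88.5% and 65.6%, against 2, 0 and 0 of 125 cells for the same genes in the tail code richest in haemoglobin, whose cells should lack all 3 and had a median of 8391.5 UMIs before thinning.

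These markers varied widely from cell to cell. In code 3, Krt14 ran from 0 to 49.6 UMIs per 10000 UMIs of the cell with a median of 25.2, and in code 8 from 0 to 63.5 with a median of 25.4. Krt5 had medians of 12.1 and 13.3 UMIs per 10000, but its highest cell reached 22.6 in code 3 and 97.6 in code 8. Epcam had medians of 3.99 and 4.15. The ranges of the codes overlapped for all 3 markers, with the highest Krt5 cells in code 8.

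Of 11474 genes tested against the other tail cells, 1078 were higher in the skin epithelium (9.40%) and 1807 were lower (15.7%), with a median log2 ratio over all genes of 0.04. In the basal list, 8 of 12 genes were higher and 1 was lower. Krt15, a basal keratin, was at 1828 CPM against 16.2 (ratio 113, 103 to 124), and Trp63, the transcription factor needed to build a layered epithelium, was at 296 CPM against 2.43 (ratio 122, 95.3 to 158). Cav1, a caveola protein, was the lower gene (21.4 against 64.4 CPM). In the suprabasal list 9 of 10 were higher, among them Krt1, at 461 CPM against 8.31 (ratio 55.5, 48.3 to 64.0), and Krtdap, a secreted differentiation product, at 826 CPM against 6.06 (ratio 136, 117 to 160). Only 4 of 12 cornified envelope and 11 of 19 periderm genes in the file could be tested, and all of these were higher. Genes close to absent elsewhere pass the minimum only through the skin epithelium, so that these counts are descriptions.

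Many genes of cell-cell contact were higher. Of 12 desmosome genes 10 could be tested and these were higher, and summed they took 0.270% of the UMIs of the skin epithelium against 0.00511% elsewhere in the tail. Perp, a desmosomal membrane protein, was at 1311 CPM against 6.90 (ratio 190, 165 to 220), and Dsp, desmoplakin, which ties the junction to keratin filaments, at 620 CPM against 3.70 (ratio 168, 138 to 206). In the adherens list 5 of 11 genes were higher and none lower, among them E-cadherin (Cdh1), at 135 CPM against 0.704 (ratio 192, 123 to 318). N-cadherin (Cdh2), of the mesenchymal transition list, was at 2.72 CPM against 108, a ratio of 0.0251 (0.0108 to 0.0496). Of the tight junction list, 10 of 11 were higher. The gap junction genes Gjb2 (380 CPM, ratio 168) and Gjb6 (215 CPM, ratio 157) belong to the channel list, where 7 of 10 were higher.

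**Figure D1:**
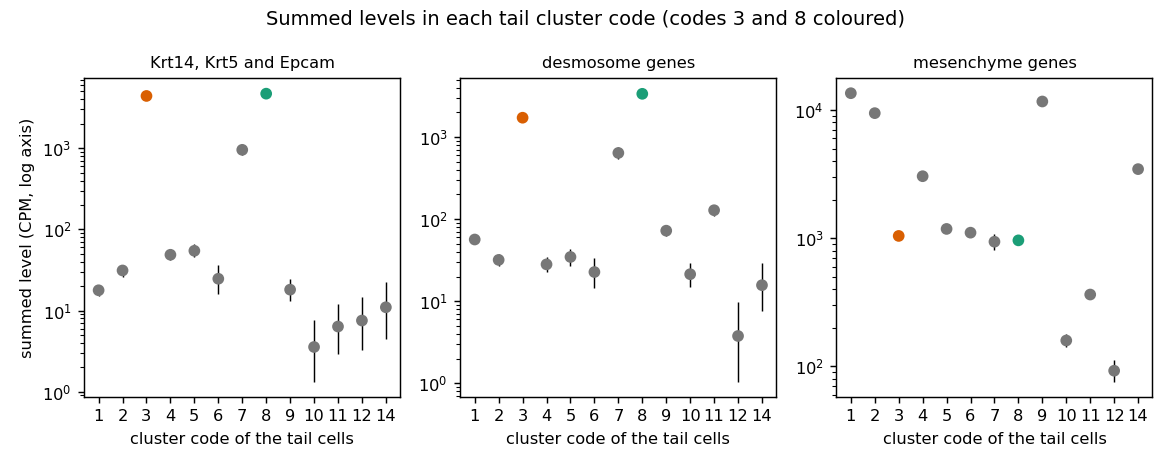
Summed CPM (log axis) of the 3 label markers, the desmosome genes and the mesenchyme genes in each of the 13 tail cluster codes, with 95% counting intervals as vertical lines and codes 3 and 8 coloured. Codes 3 and 8 are highest for the label markers (4406 and 4701 CPM) and the desmosome genes, code 7 stands next at 955 CPM for the markers, and mesenchyme genes reach 13528 CPM in code 1.

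Genes of contact with the basement membrane differed in both directions. Of the hemidesmosome list, 10 of 13 were higher, including Col17a1 (129 CPM, ratio 81.5, 59.7 to 114), a transmembrane collagen of the hemidesmosome, Itgb4 (74.4 CPM, ratio 44.0) and Lama3 (77.5 CPM, ratio 71.0), a chain of laminin-332. Itga6, the partner of Itgb4, was at 146 CPM against 75.7, a ratio of 1.93 and so just inside 2-fold, and Itgb1, the broadly used integrin chain, was lower (236 against 549 CPM). In the basement membrane list 6 of 16 were higher and 5 lower. The higher ones included Lama5 (ratio 19.3), Fras1 (ratio 10.4), which fastens embryonic epidermis to dermis, and Col4a5 (ratio 3.50). The lower ones were Col4a1, Col4a2, Hspg2, and the nidogens Nid1 (5.78 against 104 CPM) and Nid2 (1.70 against 55.1 CPM).

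Epithelial transcription factors and splicing regulators were higher in 18 of 22 tested and lower in 3. Grhl2 (58.4 CPM, ratio 83.0), Ovol2 (21.4 CPM, ratio 86.9), which represses mesenchymal genes, and the splicing factor Esrp1 (140 CPM, ratio 120) were close to absent elsewhere in the tail, at 1.16 CPM or less. Tfap2b was at 278 CPM (ratio 11.4) and Gata3 at 116 CPM (ratio 16.1). The lower members were Sox9 (27.2 against 205 CPM), Trps1 and Hoxc13. Of the 10 genes tested in the list for epithelial to mesenchymal transition, 9 were lower, among them Vim, the mesenchymal filament protein (162 against 2119 CPM, ratio 0.0763), Twist1 (ratio 0.0697), Zeb1 (ratio 0.0458) and Zeb2 (ratio 0.0523). Snai2, a transcriptional repressor of the same list, was at 69.0 against 86.7 CPM, a ratio of 0.796 (0.686 to 0.919).

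Most Wnt ligand genes were higher in the skin epithelium. In the list of Wnt ligands and their secretion, 9 of 12 were higher and 3 lower, and their sum was 5.04 times that of the other tail cells (4.89 to 5.19). Wnt6 was at 538 CPM against 7.01 (ratio 76.8, 66.2 to 89.4), Wnt4 at 741 CPM against 108 (ratio 6.87, 6.5 to 7.26), and Wnt3, Wnt7b, Wnt10a and Wnt16 were also higher. Wls, which carries Wnt proteins to the cell surface, was at 350 CPM against 116. The lower 3 were Wnt5a (26.5 against 105 CPM), Wnt5b and Wnt11, ligands best known for routes that do not pass through beta-catenin. In the list of receptors, inhibitors and targets, 6 of 21 were higher and 6 lower. Fzd6 (ratio 24.7) and Lef1, a transcriptional mediator of Wnt (213 CPM, ratio 5.43), were higher, and Dkk2, a secreted inhibitor, was lower (5.78 against 91.0 CPM).

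Growth factor genes also differed in both directions. Pdgfa was at 576 CPM against 90.1 (ratio 6.40, 6.01 to 6.81), while Pdgfra, the receptor for it that is typical of mesenchyme, was at 12.6 CPM against 163 (ratio 0.0772). Fgfr2 was higher (272 against 41.9 CPM, ratio 6.5) and Fgfr1 was lower (28.5 against 172 CPM). Fgfbp1, which releases fibroblast growth factors from matrix, had a ratio of 206 (153 to 284). In the whole list 6 of 18 were higher and 6 lower, the latter including the insulin-like growth factors Igf1 and Igf2. Of the Notch list, 6 of 11 were higher, including Notch1 (223 CPM, ratio 6.03) and its ligand Jag2 (83.9 CPM, ratio 13.9), and Notch2 was lower (30.2 against 60.7 CPM). In the bone morphogenetic protein (BMP) and TGF-beta list 3 of 23 were higher and 12 lower. The 3 were the ligand Bmp7 (ratio 3.80) and the antagonists Fst (ratio 3.91) and Sostdc1 (ratio 8.27), and the BMP targets Id2 (52.3 against 177 CPM) and Id3 (248 against 677 CPM) were among the lower ones.

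Position genes of the posterior axis were present but mostly lower. Of 18 Hox genes tested, 1 was higher and 11 were lower. Hoxc8 was at 87.3 CPM against 42.2 (ratio 2.07, 1.80 to 2.37) and Hoxa9 at 111 CPM against 83.0 (ratio 1.34). Hoxc13, which is also known from hair and tail, was at 20.7 CPM against 155 (ratio 0.134), Hoxb13 at 5.44 against 42.8 and Hoxc10 at 20.05 against 63.9.

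By the ranking rule, the genes with the largest ratios also included Lypd3 (51.0 CPM, ratio 724, 197 to 6032, on 2 UMIs elsewhere), Anxa8 (ratio 208), the plakin Ppl (ratio 208), Nectin4 (ratio 205) and Krt7 (ratio 196). S100a9 ranked above all of them, with 1061 of its 1062 UMIs in a single member, described below. The genes with the smallest ratios included those of erythroid cells (Hbb-y, 52.3 against 18093 CPM, and Hba-x), muscle (Ttn, Actc1, Myog, Tnnt1), endothelium (Cdh5, Cldn5), mast cells (Cma1, Cpa3) and nerve (Elavl3). Sparcl1, Igfbpl1, Aspn and Rhoj were also among them.

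A few members did not match the label, and RNA of other cell types was low but not absent. In code 3, 1 cell had no UMI of Krt14, Krt5, Krt15 or Epcam but 921 of S100a8, 1061 of S100a9 and 143 of Lyz2, genes of granulocytes. Another code 3 cell had no Krt14, Krt5 or Krt15 and 7768 haemoglobin UMIs, and 6468 haemoglobin UMIs occurred in another that also had 56 of Krt14. In code 8, 1 cell held 5905 haemoglobin UMIs. Without these 4 cells, 2928 genes in place of 2885 were past 2-fold against the other tail cells and 520 in place of 536 between codes 3 and 8. A further code 8 cell, not among the 4, had no Krt5 or Trp63 UMI and 1 of Epcam, but 46 of Vim and 10 of Sox2. It also had 7 UMIs of Krt14, 7 of Krt1 and 8 of Krtdap among 8721.

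For the mesenchyme list, 9 of 10 genes tested were lower, and the summed level was 1040.4 CPM in code 3 and 961 CPM in code 8 against 7862 elsewhere. It was present in 48 of 49 and 68 of 82 cells, with medians of 7.53 and 4.90 UMIs per 10000. Scx, the tendon factor, was at 88.3 CPM against 1048, and 168 of its 260 UMIs came from a single code 8 cell. Some genes of other lineages were at 0 UMIs in all 131 cells: Csf1r, C1qa, C1qb and Cx3cr1 of macrophages, Kdr and Tie1 of endothelium, Myod1 and Myf5 of muscle, Dct, Mlana and Tyr of melanocytes, and Atoh1, Krt20 and Gfi1 of Merkel cells. Other genes of these lists were detected. The members held 267 UMIs of the immune list, 190 of them in a single code 3 cell, 76 of the endothelial, 11 of the muscle and 7 of the melanocyte list. The whole Merkel list of 8 genes, which includes Krt8 and Krt18, was at 26.7 CPM in code 3 and 245 CPM in code 8 against 81.3 elsewhere. The cartilage list was at 22.5 CPM in code 3 and 60.2 CPM in code 8 against 1340 elsewhere. Genes past 2-fold were also counted with haemoglobin genes left out of the totals. They were 2886 against the other tail cells and 535 between codes 3 and 8. The part of mesenchymal or haemoglobin RNA in the other differences reported here was not tested. UMIs of Xist and of a Y-linked gene occurred together in 14 of 131 members (10.7%) against 70 of 2052 tail cells (3.41%), and these 14 cells had a median of 33818 UMIs, which was above that of all members. A doublet caller marked 9 of 2052 tail cells and none of the members.

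Cells with keratins also lay outside the rule. Of the other tail cells, 59 of 1921 had at least 5 UMIs of a keratin sum defined below, and 28 of them were among the 86 shallow cells of code 7 (median 1881 UMIs). That code had the highest level outside the members for Krt14 (574 CPM), Krt5 (341 CPM) and Epcam (40.4 CPM), and its Krt1 level of 498 CPM was close to the 461 CPM of the members. The ratios against the other tail cells include those cells.

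The layers of the epidermis were described with a rule chosen after the data had been seen. Each member was assigned to the largest of 3 keratin sums, Krt14 with Krt15, Krt1 with Krt10 and Krtdap, or Krt4 with Krt8 and Krt19, where that sum had at least 5 UMIs. This gave 99 Krt14/Krt15-led cells, 21 Krt1/Krt10/Krtdap-led cells, 8 Krt4/Krt8/Krt19-led cells and 3 without a class. The sums were mostly far apart: the Krt14/Krt15-led cells had a median of 49.6 UMIs per 10000 for their own sum, 0.890 for the suprabasal sum and 0 for the last. In the Krt1/Krt10/Krtdap-led cells the same medians were 15.5, 72.9 and 0, and in the Krt4/Krt8/Krt19-led cells 2.52, 1.15 and 130. Only 8 cells, all in code 8, had a largest sum less than 2 times the second. Among them was the cell with 46 UMIs of Vim described above, which counted as Krt1/Krt10/Krtdap-led.

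**Figure D2:**
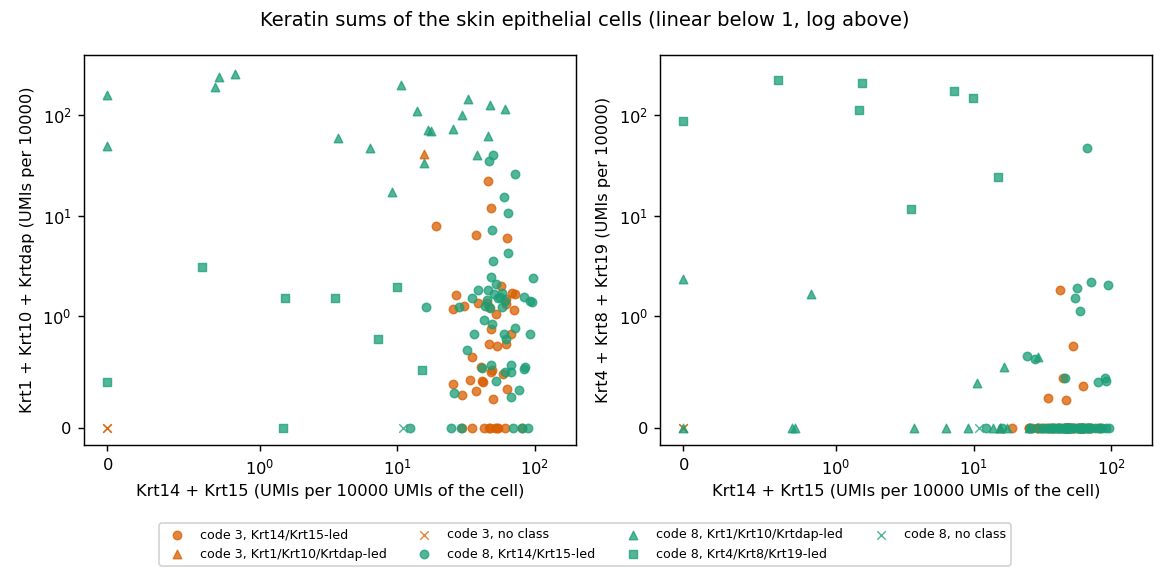
Keratin sums of each of the 131 cells in UMIs per 10000 UMIs of the cell (axes linear below 1 and logarithmic above), Krt14 + Krt15 on the x axis against Krt1 + Krt10 + Krtdap (left) and Krt4 + Krt8 + Krt19 (right), coloured by code and shaped by class. The 49 code 3 cells lie almost all at low values of both y axes, and 6 of the 8 Krt4/Krt8/Krt19-led cells, all of code 8, lie above every other cell in the right panel.

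The classes were unevenly shared between the codes. Code 3 held 46 Krt14/Krt15-led cells and 1 Krt1/Krt10/Krtdap-led cell, and code 8 held 53 and 20, besides all 8 of the third class. The Krt14/Krt15-led share was thus 93.9% of code 3 (83.1 to 98.7%) and 64.6% of code 8 (53.3 to 74.9%). After thinning to 3000 UMIs, 0 of 49 code 3 cells had a Krt4 UMI, which allows a share of cells with a UMI of up to 7.25% at this depth, against 8 of 82 in code 8 (9.76%).

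The Krt1/Krt10/Krtdap-led cells differed from the Krt14/Krt15-led cells in both directions. Of 7467 genes tested, 414 were higher (5.54%) and 963 lower (12.9%). Krt1 was at 3009 CPM against 76.7, Krt10 at 1928 against 82.6 and Krtdap at 5374 against 143, values that the rule used. Beyond these, Dmkn (1343 against 48.7 CPM, ratio 27.6, 22.5 to 34.03) and Sbsn (365 against 6.78 CPM, ratio 53.8), both secreted by suprabasal cells, Krt77 (223 against 2.54 CPM, ratio 87.9, and 53.4 without its top cell) and Elovl4, which makes very long chain fatty acids for the barrier (372 against 4.24 CPM, ratio 87.9, 46.4 to 187), were higher. The skin protease Asprv1 had a ratio of 22.8 and Hspb1, a small heat shock protein that binds keratin filaments, one of 20.7. Of the genes of the rule, Krt10 was not particular to this class. Without thinning, 74.7% of Krt14/Krt15-led cells and 826 of 1921 other tail cells had a UMI of it. Genes close to absent from one class pass the minimum only through the other, so that counts over lists are descriptions in the class comparisons.

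Of 8 desmosome genes tested, 7 were higher in the Krt1/Krt10/Krtdap-led cells and none lower. Perp was at 3484 CPM against 866 (ratio 4.02, 3.75 to 4.31), Dsp at 1397 against 475 and Dsc3, a desmosomal cadherin, at 542 against 85.1 (ratio 6.36). Dsg1a, the desmoglein of upper layers, was at 162 CPM against 10.6 (ratio 15.3, 9.47 to 25.3). Epithelial transcription factors were higher in 12 of 22, among them Ovol1 (ratio 9.01), Grhl1 (ratio 8.20), Zfp750 (ratio 7.76), Dlx5 (ratio 9.29) and Klf4 (ratio 3.51), all of which are known from differentiating keratinocytes.

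The basal programme was lower in the same cells. Of 12 basal genes 10 were lower, Krt14 and Krt15 of the rule among them, and of 13 hemidesmosome genes 9 were lower and none higher. Col17a1 was at 5.13 CPM, 2 UMIs in 21 cells, against 160 CPM, a ratio of 0.0321 (0.00387 to 0.117), and Itgb4 at 7.70 against 90.6. Krt5 (942 against 1361 CPM, ratio 0.692) and Trp63 (208 against 329.5 CPM, ratio 0.631) did not reach 2-fold, whereas Krt14 did (1101 against 2981 CPM). RNA of mesenchyme was lower too, with all 7 mesenchyme genes tested lower and Col1a1 at 5.13 against 108 CPM, and its part in these differences was not tested. Hbb-bs was at 84.7 against 1624 CPM, but 3655 of the 3834 UMIs of the Krt14/Krt15-led cells came from 1 cell, without which they were at 76.6 CPM (ratio 1.11, 0.739 to 1.61).

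Ligands were also lower. In the Wnt ligand list 7 of 10 were lower and none higher. Wnt6 was at 131 CPM against 596 (ratio 0.220, 0.163 to 0.291), Wnt10a at 20.5 against 118, and Wnt16 at 0 UMIs against 56.8 CPM, at least 7.37-fold lower against a floor of 3 UMIs over the group. Wnt4 was an exception, at 693 against 765 CPM (ratio 0.907, 0.795 to 1.03). Pdgfa was at 126 CPM against 685 (ratio 0.184), and Cxcl14, a chemokine of basal keratinocytes, at 606 against 3576 (ratio 0.169). Nearly all Cxcl14 UMIs of the Krt1/Krt10/Krtdap-led cells came from single cells with 105, 73 and 55. The cells with 105 and 73 had a largest keratin sum less than 2 times the second. Notch genes differed in both directions, with the receptors Notch1 (ratio 2.17) and Notch3 (ratio 5.86) and the ligand Jag1 (205 against 56.8 CPM, ratio 3.62) higher and the ligand Jag2 lower (17.97 against 101 CPM, ratio 0.178).

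The 8 Krt4/Krt8/Krt19-led cells were compared in the same way. Against the Krt14/Krt15-led cells, 632 of 7207 genes tested were higher (8.77%) and 1488 lower (20.6%), and all 13 periderm genes tested, of 19 in the file, were higher. That count includes the 3 genes of the rule and others that could be tested only through this class, and nothing is read from it. Krt4 was at 4108 CPM against 13.98, Krt19 at 7849 against 53.4 and Krt8 at 813 against 19.1, values that the rule used. A single Krt14/Krt15-led cell, described below, held all 33 Krt4 UMIs of the Krt14/Krt15-led cells. It also held 42 of their 45 Krt8, 93 of their 126 Krt19 and 27 of their 55 Krt18 UMIs. Krt17, which the rule did not use, was at 3423 against 198 CPM, but 424 of its 560 UMIs came from 1 cell, without which it was at 950.4 CPM (ratio 4.79, 3.93 to 5.82). Krt18, the partner of Krt8, was at 849.7 against 23.3 CPM (ratio 36.5). Upk1b, a uroplakin of surface membranes, had 225 UMIs against 2 in the 99 Krt14/Krt15-led cells (ratio 1624, 444 to 13488), and Upk1a, Mal and Gabrp had 3, 3 and 4 UMIs in those 99 cells.

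Several tight junction and cornified envelope genes were higher in this class. Among claudins, Cldn3 was at 1009 CPM against 6.35 (ratio 159), Cldn23 at 397 against 4.24 (ratio 93.8) and Cldn4 at 581 against 47.0 (ratio 12.4). Lor, loricrin, was at 275 against 19.9 CPM (ratio 13.8), and the plakins Ppl and Evpl had ratios of 18.7 and 14.8. The desmocollin in use was another one than in the Krt1/Krt10/Krtdap-led cells: Dsc2 was at 361 CPM and Dsc3 at 6.11, against 56.5 and 542 CPM there. The glucose transporters Slc2a3 (1852 CPM, ratio 27.7) and Slc2a1 (911 CPM, ratio 3.40) were higher too.

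Krt5 behaved differently from its usual partner. It was at 4187 CPM in this class against 1361 (ratio 3.08, 2.83 to 3.34), while Krt14 was at 104 against 2981 (ratio 0.0349, 0.0203 to 0.0558) and Trp63 at 55.0 against 329.5. Of the basal list 10 of 12 were lower, including Krt14 and Krt15, which the rule used, and Krt5 alone was higher. The Wnt mediator Lef1, Sostdc1, Fst, Wnt3 and Col17a1 had no UMI in the 8 cells and were at least 13.7-fold, 18.8-fold, 15.6-fold, 8.71-fold and 8.73-fold lower. Wnt6, in contrast, was at 746 against 596 CPM (ratio 1.25, 1.03 to 1.51). Of 7 mesenchyme genes tested 6 were lower in this class, and 4 of 5 blood genes were higher, through the code 8 cell with 5905 haemoglobin UMIs, which belongs to it. Their part in these differences was not tested.

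The class was not uniform. In 6 of its 8 cells Krt4 ranged from 25 to 292 UMIs, Upk1b from 19 to 53 and Gabrp from 9 to 28, with Krt5 between 36 and 191. The other 2 had none of Krt4, Upk1b or Gabrp, had 18 and 30 UMIs of Krt8, and held Shh (13 and 6), Foxa1 (5 and 1), Foxa2 (2 and 2), Sox2 (4 and 3) and Isl1 (4 and 1), none of which had a UMI in the first 6. A code 8 cell led by Krt14 and Krt15, with 240 UMIs of Krt15, 0 of Krt14 and 42 of Krt8, had 32 of Shh, 4 of Foxa1, 4 of Foxa2, 10 of Sox2 and 14 of Isl1. The periderm values above come from the first 6 cells for Krt4, Upk1b and Gabrp.

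**Figure D3:**
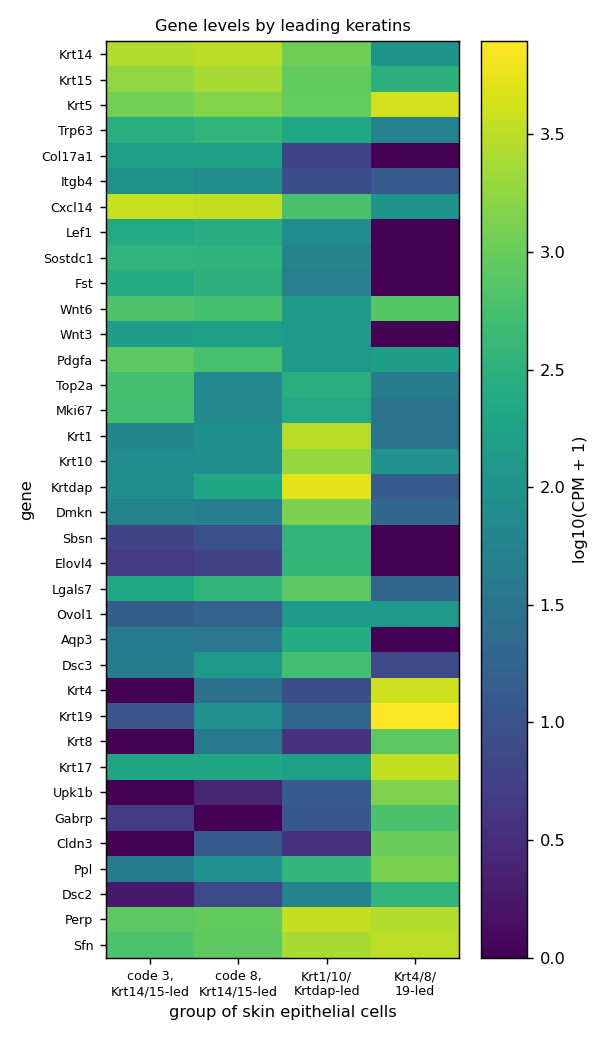
Levels of 36 genes as log10(CPM + 1) in 4 groups of skin epithelial cells: the Krt14/Krt15-led cells of code 3 (46) and code 8 (53), the Krt1/Krt10/Krtdap-led cells (21) and the Krt4/Krt8/Krt19-led cells (8). The first 2 columns differ at Top2a and Mki67, which are brighter in code 3, and Krt5 is brightest in the last column, where Krt14 is at 104 CPM.

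Code 3 and code 8 were then set against each other, the comparison that separates the skin clusters of the tail. Of 7713 genes tested, 230 were higher in code 3 (2.98%) and 306 lower (3.97%). The label markers and most basal genes stayed within 2-fold. Krt14 was at 2687 CPM in code 3 and 2446 in code 8 (ratio 1.10, 1.05 to 1.15), Krt15 at 1672 and 1935 (ratio 0.864), Krt5 at 1143 and 1662 (ratio 0.688), Epcam at 576 and 593 (ratio 0.972, 0.882 to 1.07) and Trp63 at 274 and 311 (ratio 0.882). Of the basal list 1 of 12 was higher, Itga3 (50.02 against 24.7 CPM), and no hemidesmosome or basement membrane gene was lower. Other epithelial lists were lower in code 3 in part, with 5 of 10 desmosome, 5 of 11 tight junction and 3 of 11 adherens junction genes and 8 of 22 transcription and splicing regulators.

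Genes of G2 and M phase stood out on the code 3 side. Of 49 tested, 40 were higher and none lower, with a median log2 ratio of 2.10 against -0.03 over all genes. Summed, the list took 1.22% of the UMIs of code 3 and 0.402% of those of code 8, a ratio of 3.03 (2.94 to 3.11), which was 3.01 without the 4 cells above. Top2a, the topoisomerase that untangles replicated chromosomes, was at 575 CPM against 84.3 (ratio 6.82, 5.70 to 8.21), Mki67 at 537 against 79.2 (ratio 6.78), Ube2c, a ubiquitin enzyme of mitotic exit, at 524 against 64.2 (ratio 8.16) and Aurka, a spindle kinase, at 78.4 against 8.03 (ratio 9.76, 5.54 to 18.5). The S phase list was higher in 16 of 42, including Pcna (ratio 2.38) and Rrm2 (ratio 2.84), and the replication-dependent histone gene Hist1h1b was at 3069.6 CPM against 438 (ratio 7.01).

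Single cells were then compared. The G2 and M share per cell had a median of 1.14% (quartiles 0.705 and 1.74%) in code 3 and of 0.254% (0.179 and 0.410%) in code 8, and 28 of 49 cells against 9 of 82 were at 1% or more. In the other tail cells the median was 0.187% and 265 of 1921 reached 1%. Of the 9 in code 8, 2 were Krt14/Krt15-led, 6 Krt1/Krt10/Krtdap-led and 1 Krt4/Krt8/Krt19-led. After thinning to 3000 UMIs, 36 of 49 code 3 cells (73.5%) and 16 of 82 code 8 cells (19.5%) had an Mki67 UMI, and 31 and 14 a Top2a UMI (63.3% and 17.1%). The ranges overlapped, since code 3 ran from 0.182 to 3.09% and code 8 from 0.117 to 2.11%.

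**Figure D4:**
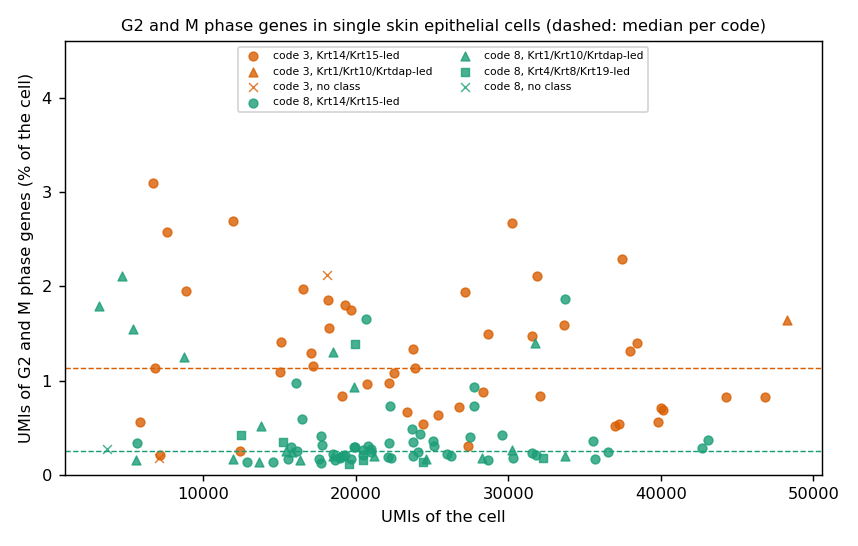
Share of G2 and M phase genes in the UMIs of each skin epithelial cell (y axis, percent) against the UMIs of the cell (x axis), coloured by code and shaped by class, with dashed lines at the medians of code 3 (1.14%) and code 8 (0.254%). Most code 3 cells lie above most code 8 cells, the codes overlap, and several of the high code 8 cells are Krt1/Krt10/Krtdap-led.

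Several genes of the outer layers were higher in code 8. Of the genes tested, 9 of 10 suprabasal, 4 of 4 cornified envelope, 11 of 13 periderm and 9 of 12 keratin genes were lower in code 3, but some of them, such as Krt4 and Krt8, pass the minimum only through code 8, and the counts are descriptions. Krtdap was at 167 CPM in code 3 and 1280.3 in code 8, a 7.68-fold difference (6.64 to 8.92), Krt1 at 103 and 708 (6.91-fold) and Lor at 6.67 and 68.8 (10.3-fold). Krt19 was at 9.17 and 806 (87.9-fold, 48.998 to 177), with 1284 of its 1406 UMIs in code 8 from the 8 Krt4/Krt8/Krt19-led cells. Krt4 and Krt8 had no UMI in code 3 against 406 and 103 CPM, at least 162-fold and 41.1-fold higher in code 8, and 708 UMIs of Krt4 in code 8 came from 9 cells. Also on this side were Cdkn1a, an inhibitor of cyclin-dependent kinases (5.84 and 67.7 CPM, 11.6-fold), Hspb1 (129 and 914 CPM, 7.08-fold), Grhl3 (16.7 and 88.9 CPM, 5.33-fold) and 5 of 16 immediate early and stress genes, with Fos at 226 and 618 CPM.

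**Figure D5:**
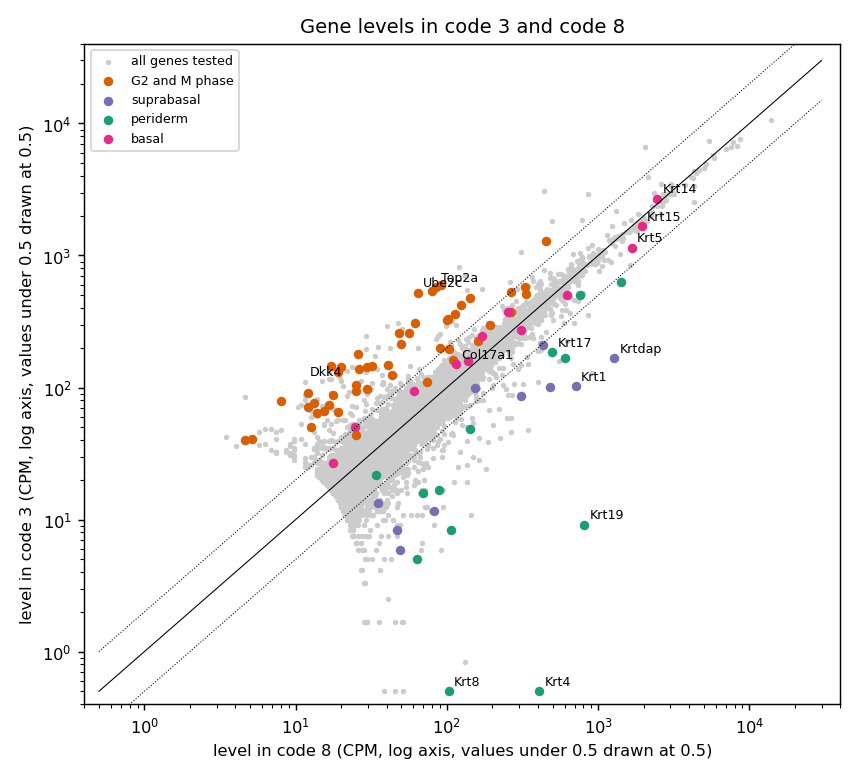
Level of each of 7713 genes in code 3 (y axis) against code 8 (x axis), both in CPM on log axes with values under 0.5 drawn at 0.5, with the line of equality solid and 2-fold dotted, and 4 gene lists coloured. G2 and M phase genes lie above the upper dotted line (40 of 49), suprabasal and periderm genes lie below the lower one (9 of 10 and 11 of 13), and Krt14, Krt15 and Krt5 lie near equality.

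Of 10 hair placode genes tested, 3 were higher and 2 lower in code 3. Dkk4, an early placode target of Wnt, was at 111 CPM in code 3 and 11.5 in code 8 (ratio 9.67, 6.01 to 16.3), but only 6 cells of each code had a UMI of it. Cells with at least 10 had 25, 40, 55 and 11 UMIs in code 3 and 10 in code 8. Fgf20, a placode ligand, had 27 UMIs in the cell with 55 of Dkk4, and 0, 4, 1 and 5 in the cells with 25, 40, 11 and 10. Among ligands more widely expressed, Wnt10b (85.9 against 42.4 CPM, ratio 2.02) and Kitl, the melanoblast growth factor (85.9 against 40.2 CPM, ratio 2.14), were just past 2-fold, Pdgfa was at 772 against 442 CPM (ratio 1.75) and Wnt4 at 750.3 against 735 CPM (ratio 1.02, 0.936 to 1.11). S100a9, S100a8 and Lyz2 headed the ranking towards code 3 and came from the 1 cell with those genes described above. Olfm4 (101 against 8 UMIs) and Stfa1 (297 against 51 UMIs) turned to the code 8 side among Krt14/Krt15-led cells, with ratios of 0.823 and 0.318.

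Restricting both codes to their Krt14/Krt15-led cells, 46 and 53, selected cells by the layer keratins, so that fewer layer differences follow from the choice itself. Of 6942 genes tested, 184 were higher in code 3 (2.65%) and 110 lower (1.58%). G2 and M phase genes were higher in 42 of 49 and S phase genes in 13 of 42, with Top2a at 558 against 67.2 CPM (ratio 8.30, 6.59 to 10.6) and Ube2c at 476 against 41.3 CPM (ratio 11.5). The suprabasal list was lower in 1 of 6 and the periderm list in 5 of 11, and no gene of the basal, hemidesmosome, basement membrane or Wnt ligand lists reached 2-fold, with Col17a1 at 160 CPM in both. Krt19 was lower in code 3 (9.77 against 93.1 CPM), but 93 of its 115 UMIs in code 8 came from the cell with 240 UMIs of Krt15 described above. The same cell held 27 of the 55 Krt18 UMIs of the Krt14/Krt15-led cells of both codes. The periderm count was not repeated without it. Also lower in code 3 were Dsc3 (41.7 against 125 CPM, ratio 0.335), Nectin4 (25.8 against 69.6 CPM), Cldn4 (24.9 against 67.2 CPM) and Fos (196 against 496 CPM, ratio 0.395). Collagen I (Col1a1) was at 55.1 against 156 CPM in the same cells, where 3 code 8 cells held 53, 50 and 45 of the 193 UMIs of code 8, and 3 of 7 mesenchyme genes were lower in code 3, so that RNA of mesenchyme moved with this difference, and its part in it was not tested. Haemoglobin genes led the other direction through the cell with 6468 haemoglobin UMIs.

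The same codes were also given to cells of the tenocyte culture, which the authors matched to the tail as the reference, but the genes of the label were mostly lower there. Code 3 held 1088 culture cells (median 10369.5 UMIs) and code 8 held 155 (median 6129 UMIs). The values stand side by side without a test, since the libraries differ in origin and depth. Krt5 had no UMI in the culture cells of either code, Krt14 was at 0 and 3.90 CPM and Trp63 at 0 and 6.83 CPM in codes 3 and 8. Epcam, in contrast, was at 786 and 1563 CPM, and Krt8, Krt18 and Krt19 in code 8 were at 2914, 3687 and 1270.1 CPM. Summed in code 8, the periderm list was at 9744 CPM in culture and 5170.4 in the tail, the tight junction list at 1932 and 675, and the suprabasal list at 191 and 3587. The 18 Hox genes summed to 9.98 and 3.90 CPM in culture against 492 and 471 CPM in the tail. A list of pluripotency genes summed to 6185 CPM in the code 3 cells of the culture against 7.503 in those of the tail, and a list of gut endoderm genes to 1881 CPM in code 8 against 4.59. The paper describes culture cells with Nanog in a skin cluster and proposes that these may be pluripotent cells left undifferentiated.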

How the data were processed

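Single cells of the E14.5 tail were sequenced by the authors with the 10x 3′ v3 chemistry after trypsin and collagenase dissociation and removal of dead cells. The deposited values are raw UMI counts for each gene in each cell. They were produced by the authors with cellranger, ignoring multi-mapping reads, and cells above 7.5% mitochondrial UMIs or in the lowest or highest 2% were removed. Clusters were called by the authors with Seurat 3.0, with the tail as the reference to which culture cells were matched, and their codes stand in the first row of the file. The genome build of the counts is not given in the sources used here. The tail file holds 27755 genes, and a single library per condition was available.

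Counts were summed over cells with Python 3.11.15, NumPy 2.4.6, SciPy 1.17.1 and pandas 2.3.3. Levels have exact Poisson intervals, ratios exact conditional binomial intervals and shares Clopper-Pearson intervals, all at 95%, and a group at 0 was set to a floor of 3 UMIs. Shares of cells with a UMI were taken after thinning each cell to 3000 UMIs. Doublets were searched with Scrublet in scanpy 1.11.5 and no cell was removed. The ratios were tested on simulated data, and the outcome is not reported here.

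Named were the 3 label markers, the members of 41 gene lists (551 of 569 genes in the file), and the 15 most extreme ratios on either side, for genes with 100 or more UMIs in the groups combined and 50 CPM or more in the higher one. A ranked gene is not reported here. The members and lists were chosen with earlier results of these data known. The keratin-led classes were chosen after seeing the data. Promoters were present in the table for 403 of the 569 list genes. Alternatives changed the fold, the minimum of UMIs, the thinning, the averaging over cells and the cells included.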

Additional observations from a re-analysis of the deposited data

How the results depend on the processing

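The number of genes past 2-fold between the skin epithelium and the other tail cells was 2885 and stayed within 1.5 times that number under the alternatives run, except at 3-fold, which left 1818. Between codes 3 and 8 it was 536, and it was 253 at 3-fold, 1503 with no minimum of UMIs, 108 with each cell thinned to 3000 UMIs, where 1507 genes could be tested, and 294 among Krt14/Krt15-led cells. The G2 and M phase ratio of 3.03 was 2.91 as a mean of single cells, 3.14 among Krt14/Krt15-led cells and 3.12 without cells holding Xist and Y-linked UMIs. The shares of cells with a UMI moved with depth, for Krt5 to 96.9% both at 5000 UMIs and without thinning, and for Epcam to 80.5% at 5000 UMIs and 94.7% without thinning. Among Krt14/Krt15-led cells the ratio of code 3 to code 8 turned for Aqp3 (1.10), Dmkn (1.20), Krt77 (5.48, on few UMIs), Olfm4 (0.823) and Stfa1 (0.318). Without its top cell Stfa1 was at 0.258, and the cause was not tested. For Upk1b the ratio of 1.65 came from the floor of 3 UMIs given to code 3. Its 2 UMIs in these cells were both in code 8, so that its direction did not turn. Leaving out the 4 cells without basal keratins or with over 1000 haemoglobin UMIs, leaving out cells with Xist and Y-linked UMIs, the restriction to Krt14/Krt15-led cells, and leaving out the top cell of a gene in the class comparisons, were chosen after seeing the data. No paired analysis was possible because there was 1 tail library and no test. Depth limits the genes under 50 UMIs over both groups, which were not called.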

Other observations

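Genes of retinoid and lipid handling were lower in 6 of 11 tested in the skin epithelium against the other tail cells, where 15.7% of all genes tested were lower, and higher in 2. Their summed level was higher, at 3948 against 1975 CPM, with Fabp5, a fatty acid binding protein of keratinocytes, at 3583 against 798 CPM, and Crabp1, a retinoic acid binding protein, was at 16.0 against 324 CPM (ratio 0.0493, 0.0362 to 0.0656). Proteases and their inhibitors of the skin surface were higher in 6 of 7 tested, of 12 in the list, where 9.40% of all genes tested were higher. Genes close to absent from either group pass the minimum only through the other, so that both list counts are descriptions and nothing is read from them. Spint1 and Spint2, inhibitors of membrane serine proteases, were at 65.6 and 292 CPM against 0.528 and 11.9. In the Krt4/Krt8/Krt19-led cells both were higher again than in the Krt14/Krt15-led cells, with ratios of 5.47 and 3.88.

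Dcn, decorin, a proteoglycan known from connective tissue, was at 337 CPM in the skin epithelium against 821 in the other tail cells. It was at 403 CPM in the Krt14/Krt15-led cells and at 6.11 CPM, 1 UMI, in the Krt4/Krt8/Krt19-led cells, while Postn, periostin, was at 233 and 0 CPM. RNA of the mesenchyme list was present in most members, and its part in the Dcn and Postn values was not tested. Fabp5 was at 8303 CPM in the Krt1/Krt10/Krtdap-led cells, 2998 CPM in the Krt14/Krt15-led cells and 1388 CPM in the Krt4/Krt8/Krt19-led cells.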
